A study of Mus musculus with 36 samples.

Results

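Fibroblasts of the mouse pancreas that had been cultured with tumour sub-clone T were compared with the same kind of fibroblast cultured with tumour sub-clone M. The comparison took 8 of the 36 libraries of the series, 4 from each co-culture, chosen by the replicate labels for clone T and clone M. The study places both clones in a single metabolic group, and the pair was singled out because stress-response genes of the fibroblasts had been seen to move in opposite directions in these libraries. Values of stress-response genes are therefore given as a description, with no test.

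All fibroblasts were of the C57BL/6 strain. In the co-cultures they had direct contact with tumour cells for 48 h and were then separated from them by fluorescence-activated cell sorting on the GFP that only the tumour cells carried. Fibroblasts in mono-culture, 4 libraries, had no tumour cells. The remaining groups, 4 libraries each, were co-cultures with sub-clones E, H, K, N and V and with KPC1. The clone T and clone M co-cultures each stand for a single tumour clone. The labels do not say whether the 4 libraries of a group came from separate cultures. The p-values below therefore measure the spread between these libraries, which may be technical. The tissue of origin and the sorting are given by the labels, and no further allele or treatment is given there for these groups.

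The integrated stress response lets a cell react to a shortage of amino acids, to unfolded protein in the endoplasmic reticulum and to other insults. Sensor kinases phosphorylate the translation factor eIF2alpha, which slows protein synthesis in general but favours translation of the transcription factor ATF4. ATF4, with partners of the C/EBP family, then drives genes for amino acid synthesis, amino acid import and tRNA charging, and feedback genes such as Trib3, Chac1 and Ddit3. Fibroblasts of pancreatic tumours are known for depositing matrix and for supplying tumour cells with metabolites, amino acids among them.

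ATF4 and a C/EBP partner bind a composite DNA element whose core can be written TGATGNAA. Promoters of RefSeq (assembly GRCm38.p6) were searched on both strands over the 250 bases before the annotated start. Of 20 genes listed as regulators of the integrated stress response, some of them outputs such as Fgf21, 19 had a promoter in the table. Of these, 6 (31.6%) held the core. Of 15 promoters of enzymes of amino acid synthesis and one-carbon metabolism, 4 (26.7%) held it. Among all 27025 genes with a promoter it was found in 1056 (3.91%). The lists were written from known genes of the pathway, targets of ATF4 among them, so a higher share than that of all genes carries no weight. A match is a run of letters and not evidence of binding. The stretches below are shown because they belong to genes whose values are described next, from among the regulators, enzymes and transporters. Capitals mark the core, which reads TTGCATCA where it lies on the other strand.

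Chac1 (chr2:119351003-119351102, plus strand): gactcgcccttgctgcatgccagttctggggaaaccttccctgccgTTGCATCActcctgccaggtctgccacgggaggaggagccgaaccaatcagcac
Atf3 (chr1:191183390-191183489, minus strand): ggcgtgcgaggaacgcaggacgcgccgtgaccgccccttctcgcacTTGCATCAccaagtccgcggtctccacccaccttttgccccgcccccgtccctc
Asns (chr6:7693214-7693243, minus strand): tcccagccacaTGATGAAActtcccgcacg
Pycr1 (chr11:120643798-120643897, minus strand): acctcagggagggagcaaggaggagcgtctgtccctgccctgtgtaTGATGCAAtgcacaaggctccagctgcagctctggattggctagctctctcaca
Slc7a11 (chr3:50443642-50443690, minus strand): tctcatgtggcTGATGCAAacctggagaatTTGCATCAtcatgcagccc

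The stretch of Asns overlaps an annotated exon, and the stretch of Slc7a11 holds the core on both strands. Of 12 promoters of synthetases 3 held the core, of 8 of transporters 1, and of 17 of chaperones and unfolded-protein genes of the endoplasmic reticulum 1.

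Totals of counts assigned to genes ran from 17364961 to 19031994 in the clone T libraries, from 12532122 to 17137810 in the clone M libraries and from 12577931 to 20727926 in mono-culture. Mitochondrial genes took 3.69 to 4.25% of counts with clone T and 4.02 to 4.72% with clone M. Levels are counts per 1000000 counts (CPM) after scaling by the trimmed mean of M values (TMM), and differences are log2 differences, clone T minus clone M, with their standard error, unless another contrast is named.

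Fibroblast markers were high in every library. Of 12 tested, 6 were lower with clone T (50%) and 2 were higher (16.7%), by the test named below. Of all genes 20.2% were lower and 20.4% higher, and the median difference of the markers was -0.61. The 12 markers summed to between 16850 and 18600 CPM with clone T, between 22120 and 32450 CPM with clone M, and between 21960 and 23760 CPM in mono-culture. Epithelial markers were also present in both co-cultures, at a summed 1015, 423, 544 and 636 CPM in clone T replicates 1 to 4 and at 207, 94.1, 653 and 359 CPM in clone M replicates 1 to 4, against 51.3 to 55.9 CPM in mono-culture. Of 18 epithelial markers 13 were tested, 3 were higher with clone T and 1 was lower at an adjusted p below 0.05, in edgeR's quasi-likelihood test with Benjamini-Hochberg adjustment over all genes. Epcam, a defining epithelial gene, was at 0 in all clone T libraries and at no more than 2 counts with clone M. Krt18, a keratin of simple epithelia, was at 429, 185, 237 and 273 CPM with clone T, at 64.6, 23.4, 238 and 130.3 CPM with clone M and at no more than 0.22 CPM in mono-culture (1.30 ± 0.65, adjusted p = 0.11). Without clone M replicate 3 it differed by 1.95 (adjusted p = 0.0296). Cdh1, which encodes E-cadherin, was at 9.38, 3.08, 4.81 and 5.54 CPM with clone T and was absent or nearly so with clone M, at 0.12 CPM in replicate 2 and 0 in the others. Summed markers of immune cells reached 16.3 CPM, and those of acinar and islet cells and of endothelial and neural cells reached 10.3 CPM, in the clone T and clone M libraries. In bulk RNA, fewer cells of a type and less RNA per cell cannot be told apart.

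The epithelial sums of clone T (423 to 1015 CPM) and clone M (94.1 to 653 CPM) overlapped. Some differences below are therefore also given with the epithelial sum as a covariate in a fit of the 32 co-culture libraries, a choice made after the data were seen. In that fit Asns, the asparagine synthetase described below, differed by 2.35 ± 0.23, against 2.14 ± 0.23 without the covariate. That fit uses a single slope for all co-cultures, so RNA carried by the tumour cells of a single clone would stay in the difference. The part of epithelial RNA in a difference was therefore not tested, for genes with or without that value.

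Of 14439 genes tested, 5851 (40.5%) differed between the clone T and clone M co-cultures at an adjusted p below 0.05, 2941 higher with clone T (20.4%) and 2910 lower (20.2%). At least 2-fold, 625 were higher (4.33%) and 894 lower (6.19%), 10.5% of all genes together, and limma on log2(RPKM + 1), where low genes count for less, gave 260 higher and 217 lower. The 4 clone T libraries lay all above the 4 clone M libraries for 18.3% of genes and all below them for 18.5%. The median difference over all genes was -0.01 on the log2 scale. Because the pair was chosen with results of these libraries known, these p-values set the size of a difference against the replicate spread and are not independent evidence that the 2 co-cultures differ.

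The 4 groups of amino acid stress genes, 70 genes in all, stood higher with clone T. Of these, 66 had a positive difference, and for 56 the clone T libraries lay all above the clone M libraries, where 18.3% of all genes did so. For 44 genes the difference was at least 1 on the log2 scale, and the median was 1.15. The choice of the pair rested on such genes, so the counts carry no further weight.

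**Figure D1:**
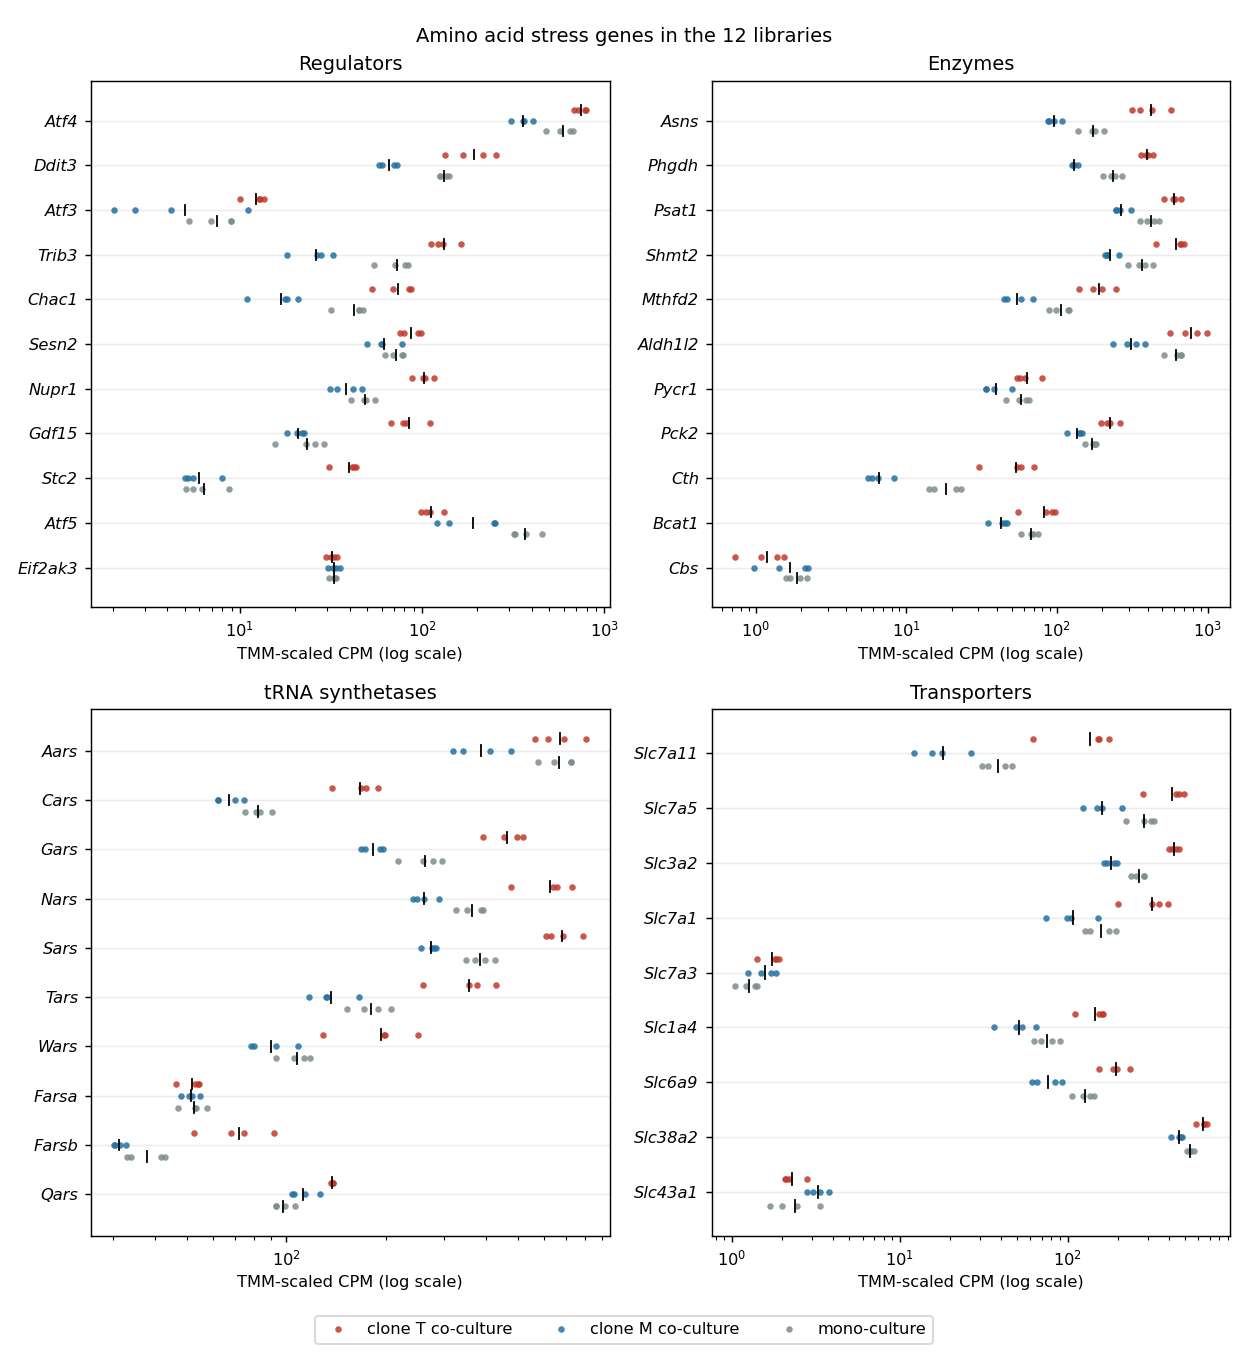
Levels of 41 amino acid stress genes in the clone T, clone M and mono-culture libraries, in TMM-scaled CPM on a log axis. Points are libraries (4 per group) and black ticks are group means. For Asns the clone T libraries sit between 316 and 573 CPM, the mono-culture libraries between 137 and 205 CPM and the clone M libraries between 86.9 and 109 CPM, while for Eif2ak3, Farsa and Slc7a3 the clone T and clone M libraries overlap.

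Sensors and transcription factors act first in the pathway. Eif2ak3, which encodes the endoplasmic reticulum sensor PERK, was alike in all 12 libraries, from 29.5 to 35.4 CPM, with a difference of -0.04 ± 0.10 (SE). Eif2ak4, the gene of the amino acid sensor GCN2, was at 41.6, 37.8, 48.1 and 43.0 CPM with clone T and at 34.5, 32.7, 42.3 and 29.7 CPM with clone M, a difference of 0.29 ± 0.10. Its clone T and clone M libraries overlapped. Atf4 itself was at 796, 784, 718 and 686 CPM with clone T, at 363, 360.3, 405 and 309 CPM with clone M, and at 481, 674, 574 and 651 CPM in mono-culture. The lowest clone T library was above every mono-culture library and every clone M library was below them all, and the difference between the clones was 1.05 ± 0.14.

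Ddit3, which encodes the pro-apoptotic factor CHOP, was at 134, 255, 169 and 217 CPM with clone T and at 73.0, 70.6, 60.7 and 58.2 CPM with clone M (difference 1.56 ± 0.21). Clone T replicate 1 lay inside the mono-culture range of 125 to 140.2 CPM, and the clone M libraries lay below it. Atf3, a stress-induced repressor and activator, was at 12.9, 13.6, 12.8 and 9.96 CPM with clone T and at 2.05, 2.67, 11.1 and 4.18 CPM with clone M. Here clone M replicate 3 overlapped the clone T range. The C/EBP partners Cebpg (1.07 ± 0.15) and Cebpb (0.84 ± 0.17) and the chromatin-associated stress factor Nupr1 (1.41 ± 0.19) were higher with clone T in every library.

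Atf5, a relative of Atf4 that acts in mitochondrial stress, went the other way. It was at 132, 106, 111 and 99.2 CPM with clone T, at 253, 248, 140.4 and 121 CPM with clone M and at 319 to 454 CPM in mono-culture. Both co-cultures were thus below mono-culture, and the difference between clones was -0.77 ± 0.23 with overlapping libraries.

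Feedback genes act downstream of ATF4. Trib3, a pseudokinase that restrains ATF4, was at 122, 163, 130.3 and 112 CPM with clone T, at 26.6, 32.4, 28 and 18.1 CPM with clone M and at 54.8 to 83.6 CPM in mono-culture. Chac1, a glutathione-degrading enzyme, was at 87.0, 84.5, 53.4 and 69.1 CPM with clone T and at 17.8, 20.8, 18.2 and 10.9 CPM with clone M, with mono-culture between at 31.8 to 47.5 CPM. For both genes the 3 groups did not overlap. The differences were 2.33 ± 0.26 and 2.12 ± 0.29. Eif4ebp1, an inhibitor of cap-dependent translation, differed by 1.21 ± 0.16, and Ppp1r15a, a phosphatase subunit that reverses eIF2alpha phosphorylation, by 1.15 ± 0.28. Sesn2 and Ddit4, inhibitors of mTORC1 signalling, differed by 0.50 ± 0.20 and 0.38 ± 0.17, and their libraries overlapped.

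Of the secreted products, Stc2, a secreted glycoprotein, was at 41.2, 43.6, 42.5 and 30.9 CPM with clone T, at 5.52, 8.02, 4.99 and 5.22 CPM with clone M and at 5.10 to 8.73 CPM in mono-culture. The clone T libraries stood apart from the other 8, and the difference was 2.73 ± 0.36. Gdf15, a circulating stress hormone, was at 67.5, 111, 78.3 and 82.0 CPM with clone T and at 22.5, 18.2, 20.5 and 21.9 CPM with clone M (2.03 ± 0.28), where mono-culture was at 15.6 to 29.1 CPM. Fgf21, another stress hormone, stayed below 0.8 CPM in all 12 libraries. For Stc2 and Gdf15, then, the clone M libraries overlapped mono-culture, unlike Atf4, Trib3 and Chac1.

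Of 17 enzymes of amino acid synthesis and one-carbon metabolism, 16 had all clone T libraries above all clone M libraries, where 18.3% of all genes did so. The median difference was 1.32. Asns, asparagine synthetase, was at 356, 573, 428 and 316 CPM with clone T and at 86.9, 109, 96.3 and 88.5 CPM with clone M (2.14 ± 0.23). Mono-culture was at 137 to 205 CPM, between the other groups without overlap. Cth, the last enzyme of cysteine synthesis by transsulfuration, had the widest gap of the enzymes, at 54.5, 70.7, 58.0 and 30.3 CPM with clone T and 5.96, 8.32, 6.48 and 5.60 CPM with clone M (3.01 ± 0.38). Its mono-culture range of 14.2 to 23.1 CPM was again in between. Cbs, the enzyme before Cth in that pathway, was at 0.73 to 1.54 CPM with clone T and 0.97 to 2.23 CPM with clone M, which overlapped, with a difference of -0.51 ± 0.33.

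All 3 steps of serine synthesis from glucose differed. Phgdh was at 390, 434, 399.7 and 359.6 CPM with clone T and at 126, 137, 129.5 and 127 CPM with clone M (1.61 ± 0.15). Psat1 differed by 1.16 ± 0.17 and Psph by 1.48 ± 0.23. Mitochondrial one-carbon enzymes followed, with Mthfd2 at 175, 247, 199 and 140.5 CPM against 57.4, 69.4, 46.7 and 44.7 CPM (1.80 ± 0.26), Shmt2 by 1.47 ± 0.23 and Aldh1l2 by 1.32 ± 0.23. The cytosolic isoform Shmt1 differed by 0.53 ± 0.15, with clone T inside the mono-culture range and clone M below it. Pycr1, the last step of proline synthesis, and Pck2, mitochondrial PEP carboxykinase, differed by 0.69 ± 0.23 and 0.72 ± 0.13. Gpt2 (1.71 ± 0.21), Got1 (1.61 ± 0.18) and Bcat1 (0.96 ± 0.21), transaminases of alanine, aspartate and branched-chain amino acids, were also higher with clone T in every library.

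The cytosolic aminoacyl-tRNA synthetases charge tRNAs for translation. Of 20, 18 had all clone T libraries above all clone M libraries, against 18.3% of all genes, with a median difference of 1.02. Tars (1.38 ± 0.21), Iars (1.36 ± 0.20), Gars (1.35 ± 0.15) and Cars (1.31 ± 0.15) were among the widest. Sars, for seryl-tRNA, was at 629, 788, 687 and 608 CPM with clone T, at 276, 255, 282 and 279 CPM with clone M and at 348 to 426 CPM in mono-culture. Those 3 ranges were separate. Aars, for alanyl-tRNA, was at 616, 804, 691 and 562 CPM with clone T and 411, 478, 341 and 318 CPM with clone M (0.79 ± 0.18). Clone T did not stand above mono-culture for Aars (576 to 725 CPM), so that gap was made by the lower clone M libraries. The subunits of phenylalanyl-tRNA synthetase parted, with Farsb at 1.2 ± 0.17 and Farsa at 0.02 ± 0.08. Small differences were also seen for Hars (0.15 ± 0.09), Dars (0.23 ± 0.11), Kars (0.26 ± 0.10) and Qars (0.29 ± 0.10).

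Among 13 amino acid transporters, 9 had all clone T libraries above all clone M libraries, against 18.3% of all genes. The median difference was 1.25. Slc7a11, the cystine importer of system xc-, was at 177, 150.5, 153 and 61.9 CPM with clone T and at 15.6, 26.4, 17.8 and 12.1 CPM with clone M (2.91 ± 0.43). Mono-culture was at 30.8 to 46.4 CPM. Clone T replicate 4 was well below the other clone T libraries, though still above mono-culture. Slc7a5, the light chain of the large neutral amino acid transporter, and Slc3a2, its heavy chain, differed by 1.38 ± 0.28 and 1.25 ± 0.16. Slc7a1, for cationic amino acids, differed by 1.56 ± 0.31, Slc1a4 by 1.52 ± 0.25, Slc6a9, for glycine, by 1.34 ± 0.23 and Slc38a1, for glutamine, by 1.35 ± 0.25. Slc38a2 differed by less, 0.48 ± 0.11. Slc7a3 (0.15 ± 0.32) and Slc43a1 (-0.50 ± 0.25) were at 1.24 to 3.77 CPM in both co-cultures and overlapped.

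Replicate 4 of clone T was the lowest of its group for 52 of the 70 genes, Slc7a11, Cth, Shmt2 and Slc7a1 among them. Low values in replicate 4 were not particular to clone T, since that replicate had the lowest mean log2 CPM of the 70 genes in all 8 co-cultures, that with clone M included. Compared number by number, that mean was higher with clone T than with clone M by 1.08, 1.14, 1.11 and 0.97 in replicates 1 to 4. Without clone T replicate 4 the median difference was 1.2 for the regulators and 1.46 for the enzymes.

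Other arms of the stress response differed less or in both directions. Of 19 tested chaperones and unfolded-protein genes of the endoplasmic reticulum, 7 had all clone T libraries above clone M, against 18.3% of all genes. The median difference was 0.28. Hspa5, which encodes the chaperone BiP, was at 584, 1015, 744 and 732 CPM with clone T and at 394, 439, 399 and 522 CPM with clone M (0.81 ± 0.17). Herpud1, an ERAD component that ATF4 also drives, differed by 0.81 ± 0.17 as well, and Xbp1 by 0.55 ± 0.10. Calr, a chaperone of glycoproteins, was lower with clone T by -0.42 ± 0.14, with overlapping libraries, and Sdf2l1, Syvn1 and Dnajb11 were within 0.02 of 0.

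Cytosolic heat shock genes had a median of -0.09 over 15 genes, 6 with all clone T libraries above clone M and 3 with all below. Of all genes 18.3% were all above and 18.5% all below, so the 3 below were near that share. The median was 0.04 without clone M replicate 1. The mitochondrial chaperonin Hspd1 was higher (1.16 ± 0.16), and its partner Hspe1 too (0.59 ± 0.16). Hspa1b, the inducible HSP70, was at 29, 26.5, 34.4 and 34 CPM with clone T and at 62.9, 53, 49.9 and 56.1 CPM with clone M (-0.84 ± 0.21), where mono-culture was at 51.7 to 62.7 CPM. Clone T was thus the group that left mono-culture for Hspa1b. Of 14 targets of the antioxidant factor NRF2, 6 had all clone T libraries above and 2 all below, with a median of 0.27. The 2 below were no more than the 18.5% of all genes, and 18.3% of all genes were above. Txnrd1, thioredoxin reductase, differed by 0.60 ± 0.10, and Nqo1, a quinone reductase, by -0.91 ± 0.25. Metallothionein Mt1, a zinc-binding protein, was at 34.7 to 63.8 CPM with clone T and 29.4 to 71.0 CPM with clone M, and both were below mono-culture at 191 to 265 CPM.

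Set against mono-culture, the same libraries gave the direction that had singled out this pair. Both contrasts use the 4 mono-culture libraries, so they are not independent, and the values are given side by side. The 70 amino acid stress genes had a median of 0.65 for clone T minus mono-culture and -0.44 for clone M minus mono-culture. Of these, 54 were above mono-culture with clone T and below it with clone M by sign, where 16.6% of all genes were. For 26 genes the 3 groups were separate, with all clone T libraries above and all clone M libraries below mono-culture. The share of all genes with that pattern was not taken. The choice of the pair rested on this direction, so both counts carry no further weight. Asns was 1.27 ± 0.22 above with clone T and -0.87 ± 0.22 with clone M. Phgdh had 0.74 ± 0.15 and -0.87 ± 0.15. Slc7a11 had 1.82 ± 0.41 and -1.09 ± 0.42. Trib3 had 0.86 ± 0.25 and -1.46 ± 0.26. Stc2, in contrast, had 2.62 ± 0.36 and -0.12 ± 0.37, and Aars 0.00 ± 0.18 and -0.79 ± 0.18. Over all genes, 7186 (49.8%) differed from mono-culture with clone T and 3320 (23%) with clone M, and 88 (0.609%) were called higher with clone T and lower with clone M. That count was 44 without mono-culture replicate 2, 52 without mono-culture replicate 3, 48 without clone M replicate 1 and 56 without clone T replicate 2. The reverse was called for 35 (0.242%), for 17 to 22 when any 1 mono-culture library was left out, for 17 without clone M replicate 1 and for 23 without clone T replicate 2.

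**Figure D2:**
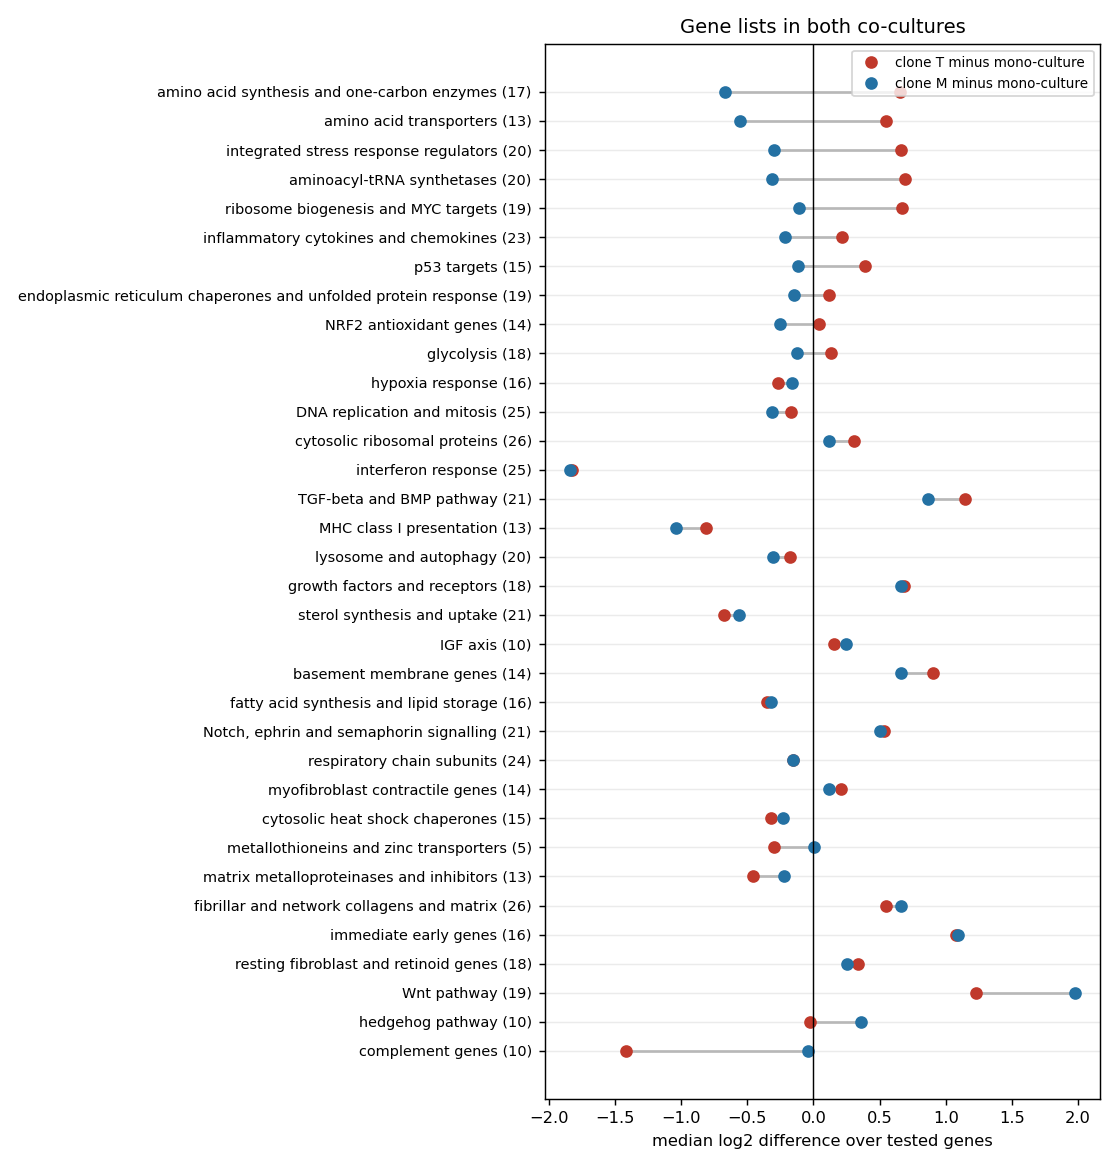
Median log2 difference from mono-culture over the tested genes of each list (number in brackets), for clone T (red) and clone M (blue). The 4 amino acid stress lists lie on opposite sides of 0, with the enzymes at 0.66 and -0.66, whereas for the interferon list both clones lie near -1.8.

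Among the 9 groups the clone M libraries were at the low end. The mean log2 CPM of the 70 genes was 5.88 ± 0.11 (SD, n = 4) with clone M, the lowest group mean, and 6.96 ± 0.18 with clone T, the fourth highest. The order from the top was clone V (7.32 ± 0.23), clone H (7.15 ± 0.26), KPC1 (7.15 ± 0.25), clone T, clone N (6.49 ± 0.16), clone E (6.39 ± 0.21), mono-culture (6.35 ± 0.14), clone K (6.33 ± 0.32) and clone M. The libraries of V, H, KPC1 and T overlapped with their neighbours in that order, as did those of N, E, mono-culture and K. The lowest clone T library, at 6.72, was above the highest clone N library, at 6.69, by little. Clone M overlapped with clone K alone, whose lowest library was at 5.90. Clone M had the lowest mean of the 9 groups for 56 of the 70 genes, and clone T was highest for 1, Pck2. The shares of all genes at these ranks were not taken, and the pair was chosen on such genes. These counts therefore carry no further weight.

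**Figure D3:**
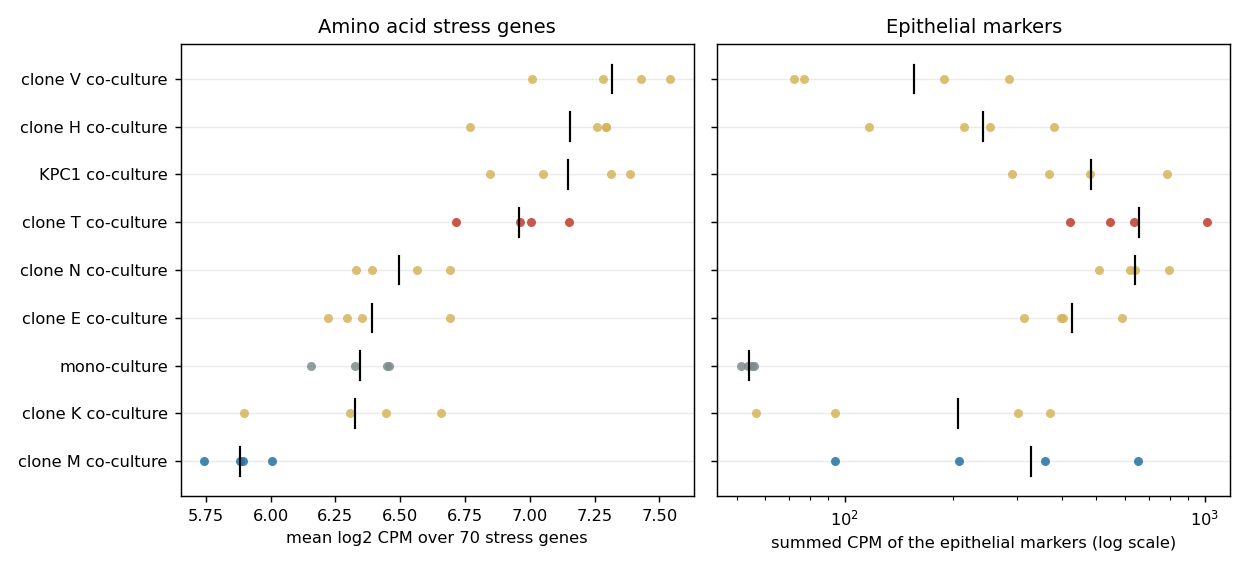
Left, mean log2 CPM over the 70 amino acid stress genes. Right, summed CPM of the epithelial markers (log axis). Points are libraries (4 per group), ticks are group means, and the groups are ordered by the stress level. Clone T lies between 6.72 and 7.15 and clone M between 5.74 and 6.01 on the left, while their epithelial sums overlap on the right.

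Outside the stress genes, the widest differences among genes with more than 3 counts in each of the 8 libraries began with Il1rn. Il1rn, the secreted antagonist of the interleukin-1 receptor, was at 122, 24.1, 32 and 72.4 CPM with clone T, at 1.18, 1.70, 4.18 and 2.09 CPM with clone M and at 0.15 to 0.55 CPM in mono-culture (4.76 ± 0.48, adjusted p = 3.76e-08). The clone T libraries ranked for Il1rn as they did for the epithelial sum, from replicate 1 down to replicate 2, and clone M replicate 3 was the highest of its group for both. Sorcs2, a sorting receptor, was at 31, 18.9, 24.3 and 19.9 CPM against 2.42, 1.22, 2.46 and 1.19 CPM (3.67 ± 0.49, adjusted p = 1.77e-06). Bmp2, a BMP ligand, was at 18.3, 3.90, 7.37 and 19.5 CPM against 1.37, 0.73, 1.2 and 0.82 CPM (3.56 ± 0.61, adjusted p = 4.74e-05). Tnnt2, Abcb1a, Acsbg1, Fam73a, Syt7, Inpp4b, Gdap1l1, Itih2 and Ace followed, with differences from 2.82 to 3.44. Acsbg1 and Syt7 also had their highest clone M value in replicate 3 (12.3 and 3.78 CPM), where the epithelial sum was 653 CPM. With the epithelial sum as a covariate, Il1rn differed by 4.12 ± 0.48, Acsbg1 by 2.80 ± 0.47, Syt7 by 2.19 ± 0.36 and Bmp2 by 2.26 ± 0.50.

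In all, 7 tested genes averaged 2 CPM or more with clone T while no clone M library held over 3 counts of them. The 3 with the highest level were Cdh1, Vsig1 and Blnk. Vsig1, a junctional adhesion protein of epithelia, was at 9.27, 1.81, 3.39 and 7.09 CPM with clone T, and Blnk, an adaptor of B-cell receptor signalling, at 6.68, 2.64, 4.75 and 7.14 CPM. Cdh1 and Vsig1 are known from epithelial cells and ranked the clone T libraries as the epithelial sum did. Cdh1 is itself part of that sum, and which cells the RNA of either gene came from was not tested. No gene met the reverse rule.

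At the other end, Tmod2, an actin pointed-end capping protein, was at 1.80, 1.10, 1.15 and 1.11 CPM with clone T and at 17.8, 19.7, 11.8 and 7.91 CPM with clone M (-3.47 ± 0.38, adjusted p = 9.34e-08). Clone M was like mono-culture here, at 15.7 to 18 CPM. Mmp3, stromelysin-1, was at 1.57, 1.37, 3.55 and 4.32 CPM with clone T and at 22.2, 36.5, 16 and 23.7 CPM with clone M (-3.18 ± 0.45, adjusted p = 3.49e-06). For Mmp3 both co-cultures were above mono-culture, which was below 1 CPM, and clone M was so by more. Tnfrsf19, a TNF receptor family member, rose from mono-culture with clone M alone among the pair. It was at 6.89, 14.6, 3.32 and 4.85 CPM with clone M against 0.33 to 1.57 CPM with clone T (-3.27 ± 0.62, adjusted p = 0.000143). Tnxb, Gas7, Omd, Gdpd2, Sorcs1, P2rx6, Nkd2, Penk and Greb1 made up the rest, with differences from -3.06 to -2.50. Of the 625 genes at least 2-fold higher with clone T, mono-culture lay between both group means for 289 and at or below both for 313.

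**Figure D4:**
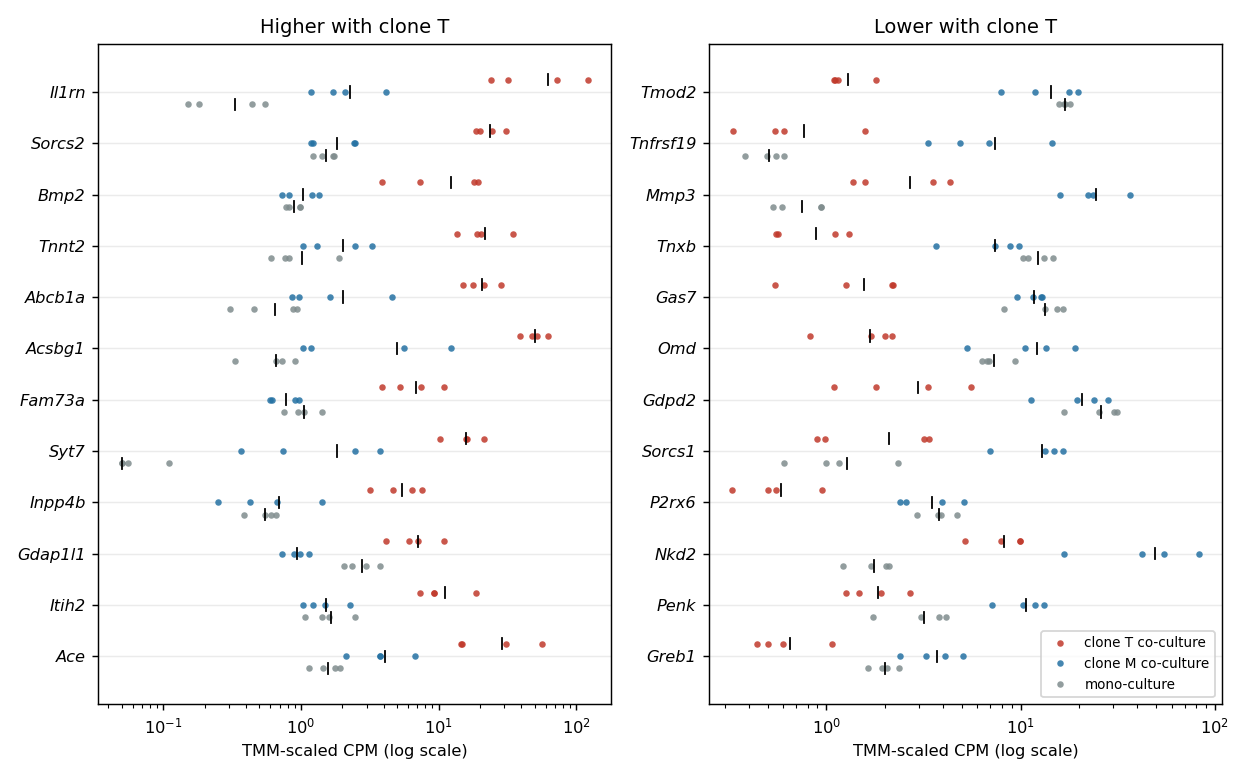
Levels of the 12 genes with the highest and the 12 with the lowest difference between clone T and clone M, in TMM-scaled CPM on a log axis, with values under 0.05 drawn at 0.05. Points are libraries (4 per group) and ticks are means. Clone T and clone M libraries are separate for all 24 genes, as the rule required, and mono-culture is near clone M for Sorcs2 and Tmod2 and near clone T for Tnfrsf19.

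The lists that follow are given with the share of their tested members called higher or lower, to be read against the 20.4% and 20.2% of all genes. Genes of ribosome biogenesis and other MYC targets were all higher with clone T. All 19 of 19 passed the test, where 20.4% of all genes were called higher, and the median difference was 0.79. Myc itself was at 263, 262, 226 and 187 CPM with clone T, at 82.1, 69.2, 111 and 91.9 CPM with clone M and at 48.0 to 71.7 CPM in mono-culture (1.41 ± 0.24, adjusted p = 3.76e-05). Nolc1, a nucleolar chaperone, differed by 0.92 ± 0.15 (adjusted p = 2.98e-05). The ribosomal proteins that such factors assemble moved little, with 2 of 26 higher (7.69%), Rpl8 (0.47 ± 0.14) and Rps2 (0.33 ± 0.10), and none lower. Both missed the threshold with the epithelial sum as a covariate (adjusted p = 0.0972 and 0.0717), and Rps2 also without clone M replicate 2 (adjusted p = 0.0503).

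Of 15 p53 targets, 9 were higher (60%) and 2 lower (13.3%) with clone T, with a median of 0.54. These may count among the stress-response genes on which the choice of the pair rested. Their counts and values are therefore a description and carry no further weight. Cdkn1a, the cell cycle inhibitor p21, was at 171, 246, 210.2 and 177 CPM with clone T and at 85.7, 120.4, 107 and 103 CPM with clone M (0.95 ± 0.23). Aen, an apoptosis-enhancing nuclease, differed by 1.02 ± 0.24. Sesn1, a sestrin, went the other way, at 33.8, 24.8, 31.6 and 41.4 CPM against 78.4, 69.0, 58.5 and 62.5 CPM (-1.03 ± 0.15). Among 25 genes of DNA replication and mitosis, 6 were higher (24%, near the 20.4% of all genes), Rrm2 (0.81 ± 0.17) and Bub1 (0.58 ± 0.19) by the most. Bub1 missed the threshold without clone M replicate 1 (adjusted p = 0.0503) or clone T replicate 4 (adjusted p = 0.0702).

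Of 18 glycolysis genes 6 were higher with clone T (33.3%, against 20.4% of all genes) and none was lower. Hk2, hexokinase 2, was at 67.0, 69.8, 71.6 and 46 CPM with clone T, at 11.3, 13.2, 26.1 and 18.1 CPM with clone M and at 13.6 to 18.3 CPM in mono-culture (1.89 ± 0.26, adjusted p = 2.88e-06). Slc16a1, the lactate and pyruvate transporter MCT1, was at 121, 120.1, 113 and 128 CPM against 46.9, 42.6, 53.3 and 59.1 CPM (1.26 ± 0.13, adjusted p = 2.08e-08). Of 24 respiratory chain subunits 3 were higher (12.5%) and 1 lower (4.17%), both below the shares of all genes.

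Of 18 growth factors and receptors 7 were higher (38.9%) and 3 lower (16.7%) with clone T. The EGF receptor ligands Areg and Ereg were among the higher. Areg was at 9.72, 23.4, 15.1 and 6.42 CPM against 0.12, 0.24, 0.63 and 0.67 CPM (5.03 ± 0.70, adjusted p = 2.95e-06), and Ereg was at 31.2, 58.4, 46.6 and 23 CPM against 7.20, 7.41, 10.7 and 10.2 CPM (2.17 ± 0.35, adjusted p = 1.89e-05). Gas6, the ligand of the AXL family, was at 1.74, 1.59, 2.02 and 2.10 CPM against 7.45, 11.8, 4.64 and 7.31 CPM (-2.06 ± 0.35, adjusted p = 3.12e-05).

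Of 16 immediate early genes 6 were higher (37.5%) and 5 lower (31.2%). Fosl1 was at 102, 171, 153 and 94.2 CPM with clone T and 16.8, 20.5, 45.4 and 34.6 CPM with clone M (2.15 ± 0.28, adjusted p = 1.33e-06), and Etv4 differed by 1.66 ± 0.23 (adjusted p = 2.87e-06). Both are targets of ERK signalling. Fos (-2.05 ± 0.73, adjusted p = 0.025) and Fosb (-2.76 ± 0.97, adjusted p = 0.0233) were lower, but they varied widely within groups. Fos ran from 153 to 912 CPM with clone M and from 47.2 to 450 CPM in mono-culture, and clone T overlapped both. Without clone M replicate 3 or clone T replicate 1, 2 or 3 the adjusted p of Fos was 0.0539 to 0.0757, and without clone M replicate 3 or clone T replicate 2 or 3 that of Fosb was 0.0593 to 0.0802.

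Of 10 genes of the IGF axis 1 was higher (10%) and 2 lower (20%), no more than the 20.4% and 20.2% of all genes, so the values below describe single genes and not the list. Igf1, insulin-like growth factor 1, was at 31.6, 31.7, 41.5 and 56.3 CPM with clone T and at 165, 253, 126 and 210.3 CPM with clone M (-2.23 ± 0.32, adjusted p = 4.12e-06), and mono-culture was at 37.0 to 53.1 CPM. Igfbp3, which binds it, was at 154, 67.8, 128 and 93.9 CPM against 16.3, 30.6, 21.7 and 19.4 CPM (2.33 ± 0.50, adjusted p = 0.000521). The other lower gene, Igfbp6, a binding protein with a preference for IGF2, differed by -0.95 ± 0.18 (adjusted p = 0.000146).

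Of 19 Wnt pathway genes 8 were lower with clone T than with clone M (42.1%) and none was higher, where 20.2% of all genes were called lower. Axin2, a feedback target of Wnt signalling, was at 13.1, 6.04, 11.4 and 4.98 CPM with clone T, at 38.8, 42.6, 22 and 30.2 CPM with clone M and at 0.23 to 1.28 CPM in mono-culture (-1.91 ± 0.39, adjusted p = 0.000312). Both co-cultures were above mono-culture, clone M by more. Nkd2, another feedback inhibitor, was at 9.89, 5.17, 9.89 and 7.97 CPM against 54.7, 82.6, 16.7 and 42.1 CPM (-2.57 ± 0.49, adjusted p = 0.000145), and Notum, a Wnt deacylase, differed by -1.52 ± 0.35 (adjusted p = 0.00081).

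Of 10 hedgehog pathway genes 7 were lower (70%) and 1 was higher (10%). Gas1, a hedgehog co-receptor, was at 82.0, 44.8, 71.9 and 102 CPM with clone T, at 275, 282, 174 and 289.8 CPM with clone M and at 498 to 673 CPM in mono-culture (-1.76 ± 0.36, adjusted p = 0.00029). Boc, another co-receptor, was near mono-culture with clone T (7.48 to 8.08 CPM) and at 13.9 to 21 CPM with clone M (-1.09 ± 0.20, adjusted p = 7.6e-05). The target Gli1 was raised over mono-culture in both, at 6.97 to 12.6 CPM with clone T and 12 to 32.5 CPM with clone M, and these overlapped (-0.79 ± 0.30, adjusted p = 0.034). That difference rested on clone M replicate 3, without which it was -0.32 (adjusted p = 0.373), and it also missed the threshold without clone T replicate 2 or 4 (adjusted p = 0.081 and 0.118). The 1 higher gene, Hhip, stayed at or below 1.21 CPM and missed the threshold without clone M replicate 4 or clone T replicate 2 (adjusted p = 0.0523 and 0.0987).

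Of 26 collagens and other matrix genes 8 were lower (30.8%) and 2 higher (7.69%) with clone T, with a median of -0.25. The median was -0.12 without clone M replicate 2, -0.13 without clone T replicate 4 and -0.06 with the epithelial covariate. Dcn, which encodes decorin, was at 59.8, 76.2, 96.4 and 162 CPM with clone T and at 352, 482, 260 and 442 CPM with clone M (-1.96 ± 0.39, adjusted p = 0.000239). Col1a1, the chain of collagen I and a fibroblast marker, was at 5028, 5192, 5190 and 4550 CPM against 10210, 11650, 7518 and 6285 CPM (-0.84 ± 0.20, adjusted p = 0.00158). Ctgf, a matricellular growth factor modulator, rose the most, at 259, 372, 257 and 329 CPM against 78.2, 107, 126 and 105 CPM (1.55 ± 0.42, adjusted p = 0.00404). Epithelial sums were 423 to 1015 CPM in the clone T and 94.1 to 653 CPM in the clone M libraries, and with that sum as a covariate Dcn differed by -1.55 ± 0.36 and Col1a1 by -0.63 ± 0.22. Of 13 matrix metalloproteinases and inhibitors, 6 were lower (46.2%) and 2 higher (15.4%), the latter Timp1 (0.97 ± 0.22, adjusted p = 0.000728) and Mmp11 (0.54 ± 0.14, adjusted p = 0.0024).

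TGF-beta and BMP genes were split, 8 higher (38.1%) and 6 lower (28.6%) of 21. Grem1, a secreted BMP antagonist, was at 622, 525, 579.9 and 426 CPM with clone T, at 132, 135, 126 and 167 CPM with clone M and at 161 to 237 CPM in mono-culture (1.94 ± 0.26, adjusted p = 1.41e-06). Id2, a BMP target, was lower, at 14.8, 3.24, 6.88 and 21.1 CPM against 34.8, 27, 25.6 and 31.6 CPM (-1.37 ± 0.46, adjusted p = 0.0172), and it missed the threshold without clone T replicate 2 or 3 (adjusted p = 0.0719 and 0.063). Grem1 and the ligand Bmp2 were thus both higher with clone T.

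Of 23 inflammatory genes 10 were higher (43.5%) and 2 lower (8.7%), with a median of 0.69, which was 0.23 with limma on log2(RPKM + 1). Lif, a cytokine of the interleukin-6 family, was at 19.1, 15.6, 17 and 10.9 CPM with clone T and at 2.73, 3.64, 9.0 and 4.92 CPM with clone M (1.62 ± 0.42, adjusted p = 0.00296). Ccl2, a monocyte chemoattractant, was at 99.6, 78.4, 117 and 80.8 CPM with clone T and at 26.1, 28, 41.1 and 40.5 CPM with clone M (1.47 ± 0.42, adjusted p = 0.00586). Ccl2 with clone T overlapped mono-culture (88.7 to 92.2 CPM) and clone M lay below it. With the epithelial sum as a covariate Ccl2 differed by 1.06 (adjusted p = 0.0634). Il6 stayed under 5 CPM in all 12 libraries (1.5 ± 0.38, adjusted p = 0.00221).

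Of 10 complement genes 7 were lower (70%) and 1 was higher (10%). Serping1, the C1 inhibitor, was at 0.90, 1.15, 1.2 and 1.77 CPM against 3.66, 6.32, 3.21 and 3.66 CPM (-1.74 ± 0.32, adjusted p = 9.25e-05). The higher gene was Clu, clusterin, at 1212, 219, 456 and 411 CPM with clone T and 53.8, 28, 264 and 76.9 CPM with clone M (2.44 ± 0.69, adjusted p = 0.00589). Mono-culture was at 3.50 to 6.08 CPM, and Clu was highest in the library of each clone with the highest epithelial sum, 1015 CPM for clone T and 653 CPM for clone M. With that sum as a covariate Clu differed by 1.19 ± 0.31. Among 18 genes of resting fibroblasts and retinoid handling, 8 were lower (44.4%) and 1 higher (5.56%). Dpt, dermatopontin, was at 3.82 to 5.54 CPM with clone T, at 15.8 to 27.5 CPM with clone M and at 126 to 228 CPM in mono-culture (-2.38 ± 0.37, adjusted p = 1.58e-05). Of 25 interferon-response genes 1 was lower (4%), Ifit2, a translation inhibitor (-0.44 ± 0.15, adjusted p = 0.0204), and none was higher. Ifit2 missed the threshold without clone M replicate 1 or 2 or clone T replicate 1 (adjusted p = 0.0538 to 0.0843), and with the epithelial sum as a covariate (adjusted p = 0.0627).

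**Figure D5:**
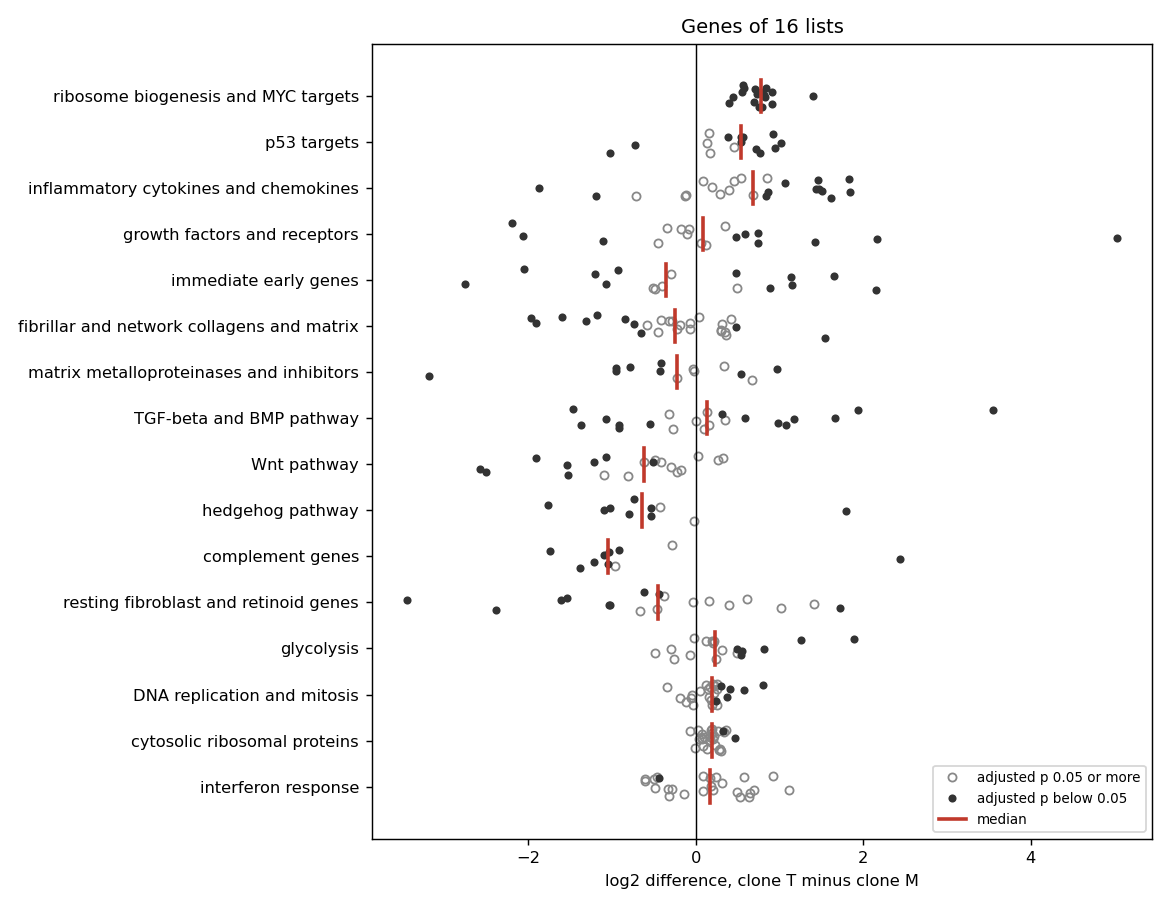
Log2 difference, clone T minus clone M, for the tested genes of 16 lists other than those described without a test. The p53 list may hold stress-response genes, so its filled points carry no further weight. Filled points passed an adjusted p of 0.05, open points did not, and red ticks are list medians. All 19 ribosome biogenesis genes are filled and to the right of 0, and the complement list has its median at -1.04 with Clu alone far to the right.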

How the data were processed

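RNA of sorted fibroblasts was sequenced as strand-specific poly(A) libraries (Agilent SureSelect, 200 ng of RNA, 14 cycles, paired 76 bp reads). The authors deposited a table of counts of reads per gene (39017 genes) and a table of RPKM values (37746 genes), and the submitters' processing notes name STAR, featureCounts, edgeR and mm10, with versions not given in the sources used here. Groups were taken from the sample labels.

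Deposited counts were fitted with edgeR 4.0.16 (R 4.3.3) by the quasi-likelihood test over all 36 libraries in 9 groups, with TMM scaling, the default filter on low counts and Benjamini-Hochberg adjustment at 0.05. Log2 CPM used a prior count of 1, and a standard error is the absolute log2 difference over the square root of F. Alternatives were DESeq2 1.42.0, limma 3.58.1 on the deposited RPKM values (pseudocounts 1 and 0.1), other scalings and filters, a replicate block, each library left out, and an epithelial covariate chosen after the data were seen. On simulated counts for 14168 genes in the clone T and clone M comparison edgeR recovered 71% of 2-fold and 94% of 4-fold changes with 7 false calls. Only 100 genes were changed 2-fold and 100 genes 4-fold there, whereas 40.5% of genes were called in the data. Recovery and false calls depend on that share, so these values need not hold for the comparison itself.

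The pair, its members and the gene lists were chosen with earlier results of these data known. Stress-response lists, which the choice used, were described without a test. Outside them, the genes named were the 12 highest and 12 lowest differences among genes called, with more than 3 counts in each of the 8 libraries, a mean of at least 2 CPM and separate clones, then up to 3 genes each way at or under 3 counts in all libraries of 1 clone and at 2 CPM or more in the other, then up to 2 higher and 2 lower members of each list, list-defining members and markers. No pair of libraries of a clone agreed within sampling noise. Copies of near-identical genes (Hspa1b, ribosomal proteins, class I genes) may share reads.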

Additional observations from a re-analysis of the deposited data

Results flagged for a closer look

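Dixon's test, which sets the gap between an extreme library and its nearest neighbour against the range of the group, marked a single library at the 0.05 level in 20 of 555 groups of 4 over the genes and lists named. A test at that level marks about 1 in 20 groups by chance. By list, the mean log2 CPM of the stress regulators was 4.86 in the lowest clone M library, that of the IGF axis was 5.31 in the highest clone M library, and in mono-culture the collagen and matrix list reached 9.14 in its highest library and the Wnt list fell to 2.14 in its lowest.

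Among clone M libraries the outlying values were 0.12 CPM for Cdh1, 32.5 CPM for Gli1, 56.7 CPM for Mmp11, 6.32 CPM for Serping1 and 259.9 CPM for Shmt2 at the high end, and 174 CPM for Gas1 and 51.4 CPM for Timp1 at the low end. Among clone T libraries they were 4.38 CPM for Notum, 1422 CPM for Rps2, 2.80 CPM for Slc43a1 and 1.80 CPM for Tmod2 at the high end, and 60.6 CPM for Slc38a1 and 225.2 CPM for Nid2 at the low end. In mono-culture they were 7.38 CPM for Aen and 31.8 CPM for Chac1 at the low end and 1.90 CPM for Tnnt2 at the high end.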

How the results depend on the processing

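Of 865 recomputed counts, medians and shares, 837 stayed within a set tolerance of the reported value. For a median this was the SD of the list score over a clone's libraries, the larger of both clones. Its sign was not part of the rule, so a median near 0 could change sign. That of the basement membrane genes went from 0.041 to -0.099 without clone M replicate 4. At least 2-fold, 919 genes (400 higher, 519 lower with clone T) were called when each of the 8 libraries had to have 10 counts, and 477 (260 and 217) with limma on log2(RPKM + 1), against 1519. Without scaling beyond the library total 42.9% of calls were higher with clone T, against 50.3%. Medians moved to 0.97 (stress regulators), 0.20 (NRF2) and 0.23 (inflammatory) with log2(RPKM + 1). With the epithelial covariate medians were 1.62 (amino acid enzymes), 0.33 (DNA replication) and -0.22 (epithelial markers). The covariate is the sum of those same epithelial markers, so the fall of their median is built into that fit. Leaving out 1 library gave -0.14 to 0.038 for heat shock and 0.24 to 0.33 for NRF2. Leaving out any 1 of the clone T, clone M and mono-culture libraries gave 44 to 97 genes called higher than mono-culture with clone T and lower with clone M, and 17 to 42 genes for the reverse, where the omissions of clone libraries were added after the data were seen. The stricter motif TGATGCAA was found in 0.918% of all promoters, and in 31.6% and 13.3% of those of regulators and enzymes. Causes of the other shifts were not tested, beyond the smaller number of genes or libraries that a filter or an omission leaves.

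Replicate numbers were not taken to pair the libraries in the main fit. The labels name no shared batch or day, and not every same-numbered pair correlated above 0.1, which does not exclude a pairing. Running numbers in the sample titles go through all co-cultures of a replicate number before the next, with mono-culture last. Same-numbered clone T and clone M libraries deviated from their group means with correlations over genes of 0.0637, 0.213, 0.0423 and 0.565, and clone T replicates 1 and 2 were nearest to clone M replicate 3. Even so, over all pairs of co-cultures the median correlation was 0.143 for 112 same-numbered pairs and -0.04 for 336 others, and replicate 4 had the lowest stress level in all 8 co-cultures. With the replicate number as a block, 6676 genes were called in place of 5851 and 1615 in place of 1519 at least 2-fold. With the block over the 32 co-culture libraries alone, added after the data were seen, they were 6617 and 1586. With the block over all groups, against mono-culture 134 were higher with clone T and lower with clone M and 59 the reverse. That block joins mono-culture to the co-cultures by number alone, since the titles number the mono-culture libraries on their own. Of 75 named genes called, 12 missed the threshold under at least 1 alternative and none reversed. Beside the omissions and the covariate given above, these were Fos and Gli1 with no filter, Gli1 and Id2 in a fit of the 8 libraries alone, and Fosb, Hhip and Rps2 with limma. Totals ran from 12532122 to 19031994 counts in the 8 libraries compared, and genes under the filter on low counts were not tested.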

Other observations

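Further lists are given for single genes in them, since most had shares of called members near or below the 20.4% higher and 20.2% lower of all genes. Of 16 hypoxia-response genes 4 were higher (25%) and 2 lower (12.5%) with clone T. Ero1l, an oxidase of the endoplasmic reticulum, was at 162, 257, 189 and 157 CPM with clone T and at 56.0, 61.1, 57.8 and 55.4 CPM with clone M (1.73 ± 0.20). Mono-culture was at 86.0 to 122 CPM, and those 3 ranges were separate. Stress genes of the endoplasmic reticulum were among those that the choice of the pair rested on. The values of Ero1l are therefore a description, and its place among the 4 higher genes carries no further weight. Of 20 genes of lysosomes and autophagy 6 were higher (30%) and none lower. Sqstm1, the autophagy receptor p62, was at 590, 756, 625 and 553 CPM with clone T and 422, 395, 391.9 and 418 CPM with clone M (0.63 ± 0.12). It was clone M that lay below mono-culture (602 to 712 CPM). Sqstm1 may also count among the stress-response genes, so its values are a description too. Of 13 genes of MHC class I presentation 3 were higher (23.1%) and 2 lower (15.4%), and H2-K1, a class I heavy chain, differed by 0.78 ± 0.21 (adjusted p = 0.00348) while Tap2, a peptide transporter, differed by -0.58 ± 0.14 (adjusted p = 0.00138).

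Among 14 basement membrane genes 5 were higher (35.7%) and 3 lower (21.4%). Col18a1, a collagen of basement membranes, was at 746, 734, 659 and 566 CPM with clone T, at 284, 210.1, 426 and 282 CPM with clone M and at 105 to 115 CPM in mono-culture (1.17 ± 0.23, adjusted p = 0.000155). Nid2, nidogen-2, was lower (-0.60 ± 0.19, adjusted p = 0.012), and it missed the threshold without clone M replicate 2 (adjusted p = 0.0894), without clone T replicate 1 (adjusted p = 0.069) or with the covariate (adjusted p = 0.16). Of 14 contractile genes of myofibroblasts 2 were higher (14.3%) and 5 lower (35.7%), with Myl9, a myosin light chain, at 35.8, 40.1, 42.8 and 52.92 CPM with clone T and at 97.1, 134, 52.95 and 88.4 CPM with clone M (-1.12 ± 0.30, adjusted p = 0.00413). With the epithelial marker sum as a covariate Myl9 differed by -0.58 (adjusted p = 0.091). Acta2, smooth muscle actin, overlapped (0.39 ± 0.37, adjusted p = 0.427). Of 21 genes of Notch, ephrin and semaphorin signalling 3 were higher (14.3%) and 2 lower (9.52%), of 21 genes of sterol synthesis and uptake 1 was higher (4.76%) and 3 lower (14.3%), and of 16 genes of fatty acid synthesis and storage 2 were higher (12.5%) and none lower, all below the shares of all genes.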
